A study of Mus musculus with 3 samples.

Results

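The JAK-STAT genes described here were the kinase Jak2, the transcription factors Stat3, Stat5a and Stat5b, the feedback inhibitors Socs1, Socs3 and Cish, the kinase Pim1 and the cytokine Osm. They are 9 of the 32285 genes counted, were taken by their symbols, and all 9 were found. Their UMIs (unique molecular identifiers, 1 per captured transcript) were summed per mouse over the cells of each class. The cells were leukocytes from mouse aortas, measured by CITE-seq, a droplet method that reads transcripts and antibody tags of the same cell. Aortas came from 5 Jak2WT control mice (mice 1 to 5) and from 5 untreated Jak2V617F Myel mice, whose cells were pooled into a single sort and library after each mouse had been given its own hashtag antibody. Jak2V617F Myel mice carry 1 conditional Jak2V617F allele and LysM-Cre, a recombinase under the lysozyme M promoter that is active mainly in myeloid cells, so lymphocytes are expected to keep the wild-type kinase in most cells. Mice 7 and 9 had an aneurysm visible at collection. Mice 6, 8 and 10 did not and form the dilation group. Circulating leukocytes had been stained in vivo and were left out of the sort, and the 2 genotypes were mixed to near equal cell numbers, so a count of cells says nothing of their number in the vessel. The study used mice of both sexes and littermate controls of like age and sex. The sex and age of each of these mice were not given in the sources used here.

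JAK2 is a tyrosine kinase bound to the inner part of cytokine receptors, among them those for erythropoietin, GM-CSF, IL-3 and interferon gamma. On ligand binding it phosphorylates STAT3, STAT5A and STAT5B, which pair, enter the nucleus and bind short palindromes in DNA. Among the genes they switch on are Cish, Socs1 and Socs3, whose proteins bind the receptor or the kinase and dampen the signal, Pim1, a serine/threonine kinase that favours survival, and Osm, oncostatin M, a cytokine of the IL-6 family made by myeloid cells. The V617F change lies in the pseudokinase domain, which holds the kinase in check, and leaves it active with little or no ligand. It is the leading mutation of myeloproliferative neoplasms. The libraries read the 3′ end of transcripts and do not show the V617F position, so the level of Jak2 checks neither the genotype nor the recombination.

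The palindrome TTCNNNGAA, read by STAT dimers and identical on both strands, was looked for in the RefSeq promoter windows of the members (GRCm38.p6, 250 bases before to 50 bases after the annotated start). It stood in 2726 of the 32851 windows of all genes (8.3%). Windows were found for 8 of the 9 members, all but Osm, and 2 of the 8 held the motif. This count is of genes and the 8.3% is of windows, so they are not like for like. Stat5a, Stat5b and Pim1 had 2 windows each. The 2 genes were Cish and Socs3, both feedback inhibitors, and their sites are printed as the only matches among the members. The capitals mark the motif, the first line lies at chr9:107296654-107296683 on the plus strand, and the second at chr11:117969501-117969530 on the minus strand.
Cish: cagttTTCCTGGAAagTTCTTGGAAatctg
Socs3: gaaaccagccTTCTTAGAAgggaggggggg
The pair of motifs in Cish began 0 and 11 bases after the RefSeq start, and the motif in Socs3 began 154 bases before its RefSeq start. The spans of genes printed in other paragraphs come from the GENCODE annotation. There both genes start further upstream, Cish at chr9:107296026 and Socs3 at chr11:117970047, so both sites lie inside the GENCODE spans. A match describes the letters of the window and does not show binding. The windows of Jak2, Stat3, Stat5a, Stat5b, Socs1 and Pim1 held none.

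Of 8471 barcodes, 5857 carried 1 hashtag, and 4871 of these passed the limit on mitochondrial transcripts. Each mouse gave 112 to 811 cells with a median of 5441.5 to 10775 UMIs per cell, and the mutant mice with aneurysm were the deepest. Among macrophages, 390 cells in 2 clusters of low RNA content were removed and 1726 were kept. The names of clusters follow the study and say which of its marker genes led a cluster. There were 704 resident macrophages (301 Res-MGL1hi, 154 Res-S100hi and 249 Res-Txniphi), 441 IEG+ macrophages, led by immediate-early genes, and 480 Ccr2+ inflammatory macrophages. Lyve1, Mrc1, Folr2 and F13a1, which mark resident macrophages of the vessel wall, stood at 1250 to 3630 CPM in the 3 resident clusters. CPM is a UMI count scaled to the same total in every sum. The IEG+ cluster held Lyve1, Mrc1, Folr2 and F13a1 as well, at 996, 2190, 604 and 2010 CPM. Gene by gene, Mrc1 lay within the range of the resident clusters, and Lyve1, Folr2 and F13a1 lay below it. The Ccr2+ inflammatory cluster held 49.1, 693, 65.3 and 320 CPM of the same genes. The resident class leaves out the IEG+ cluster, so comparing them does not set cells with these markers against cells without. Free RNA in the droplets was seen as Lyz2, a myeloid gene, at a median of 136 CPM in T cells against 5710 CPM in macrophages.

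The members differed widely in where they were found. Values are CPM of the sum over a class, in 16 classes with at least 10 cells in 3 or more mice, and each gene is compared only with itself. Jak2 was highest in type 2 innate lymphoid cells (ILC2), at 200 ± 66.5 CPM (SD, n = 9 mice, range 140 to 324). Those values did not overlap with the next class, cDC1, at 121 ± 21.2 CPM in 4 mice. The 5 macrophage clusters were among the 6 lowest classes for Jak2, with means of 20.9 to 32.2 CPM whose ranges overlapped each other. Stat3 was led by neutrophils at 301 ± 42.1 CPM (n = 3), followed by Res-MGL1hi at 225 ± 28.1 (n = 7) and IEG+ macrophages at 204 ± 49.4 (n = 10), and these neighbours overlapped. Both Stat5 genes, by contrast, were highest in thymocytes, a cluster led by Rag1, Dntt and Cd8b1, genes of immature T cells. Stat5b reached 207 ± 40.7 CPM there (n = 4), with no overlap with T cells at 70.0 ± 22.8 CPM (n = 10). Stat5a stood at 123 ± 35 CPM in thymocytes and overlapped with T cells at 42.4 ± 28.3. Stat3 (chr11:100885098-100939540, minus strand) and Stat5a (chr11:100859351-100885169, plus strand) overlap by 72 bases at their 3′ ends, where these libraries are read, and whether counting used the strand was not given in the sources used here.

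Each of the 3 feedback inhibitors was led by a different set of cells. Socs1, which binds JAKs directly and limits interferon signaling, was highest in thymocytes at 298 ± 102 CPM (range 212 to 435, n = 4), above gamma delta T cells at 95.8 ± 32.1 (n = 4) with no overlap. In the 5 macrophage clusters its means were only 1.22 to 15.0 CPM. Socs3, which binds gp130-type receptors, was led by IEG+ macrophages at 431 ± 86.6 CPM (n = 10), Ccr2+ inflammatory macrophages at 413 ± 43.8 (n = 4) and Res-MGL1hi at 367 ± 56.3 (n = 7), and these overlapped. Res-Txniphi had 91.0 ± 52.0 CPM of Socs3, and in 7 of 7 mice with both clusters the Res-MGL1hi value was the higher one. Cish, a target and inhibitor of STAT5 signaling, was highest in ILC2 and gamma delta T cells. ILC2 held 252 ± 52.6 CPM of Cish, with 155, 284, 230.4 and 247 CPM in Jak2WT mice 1, 2, 3 and 5 and 239, 341, 218, 296 and 256 in mutant mice 6 to 10. Every ILC2 value lay above the T cell value of the same mouse (9 of 9). Gamma delta T cells followed at 154 ± 45.7 CPM (n = 4) and overlapped with ILC2. Mast cells came next at 54.0 ± 41.3 CPM (n = 4), above T cells at 24.5 ± 16.7, and B cells and thymocytes held 4.32 and 2.0 CPM. In macrophages Cish was near its detection limit, with means of 1.06 to 1.95 CPM in the IEG+ and resident clusters and 8.33 ± 9.98 in the inflammatory one.

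**Figure D1:**
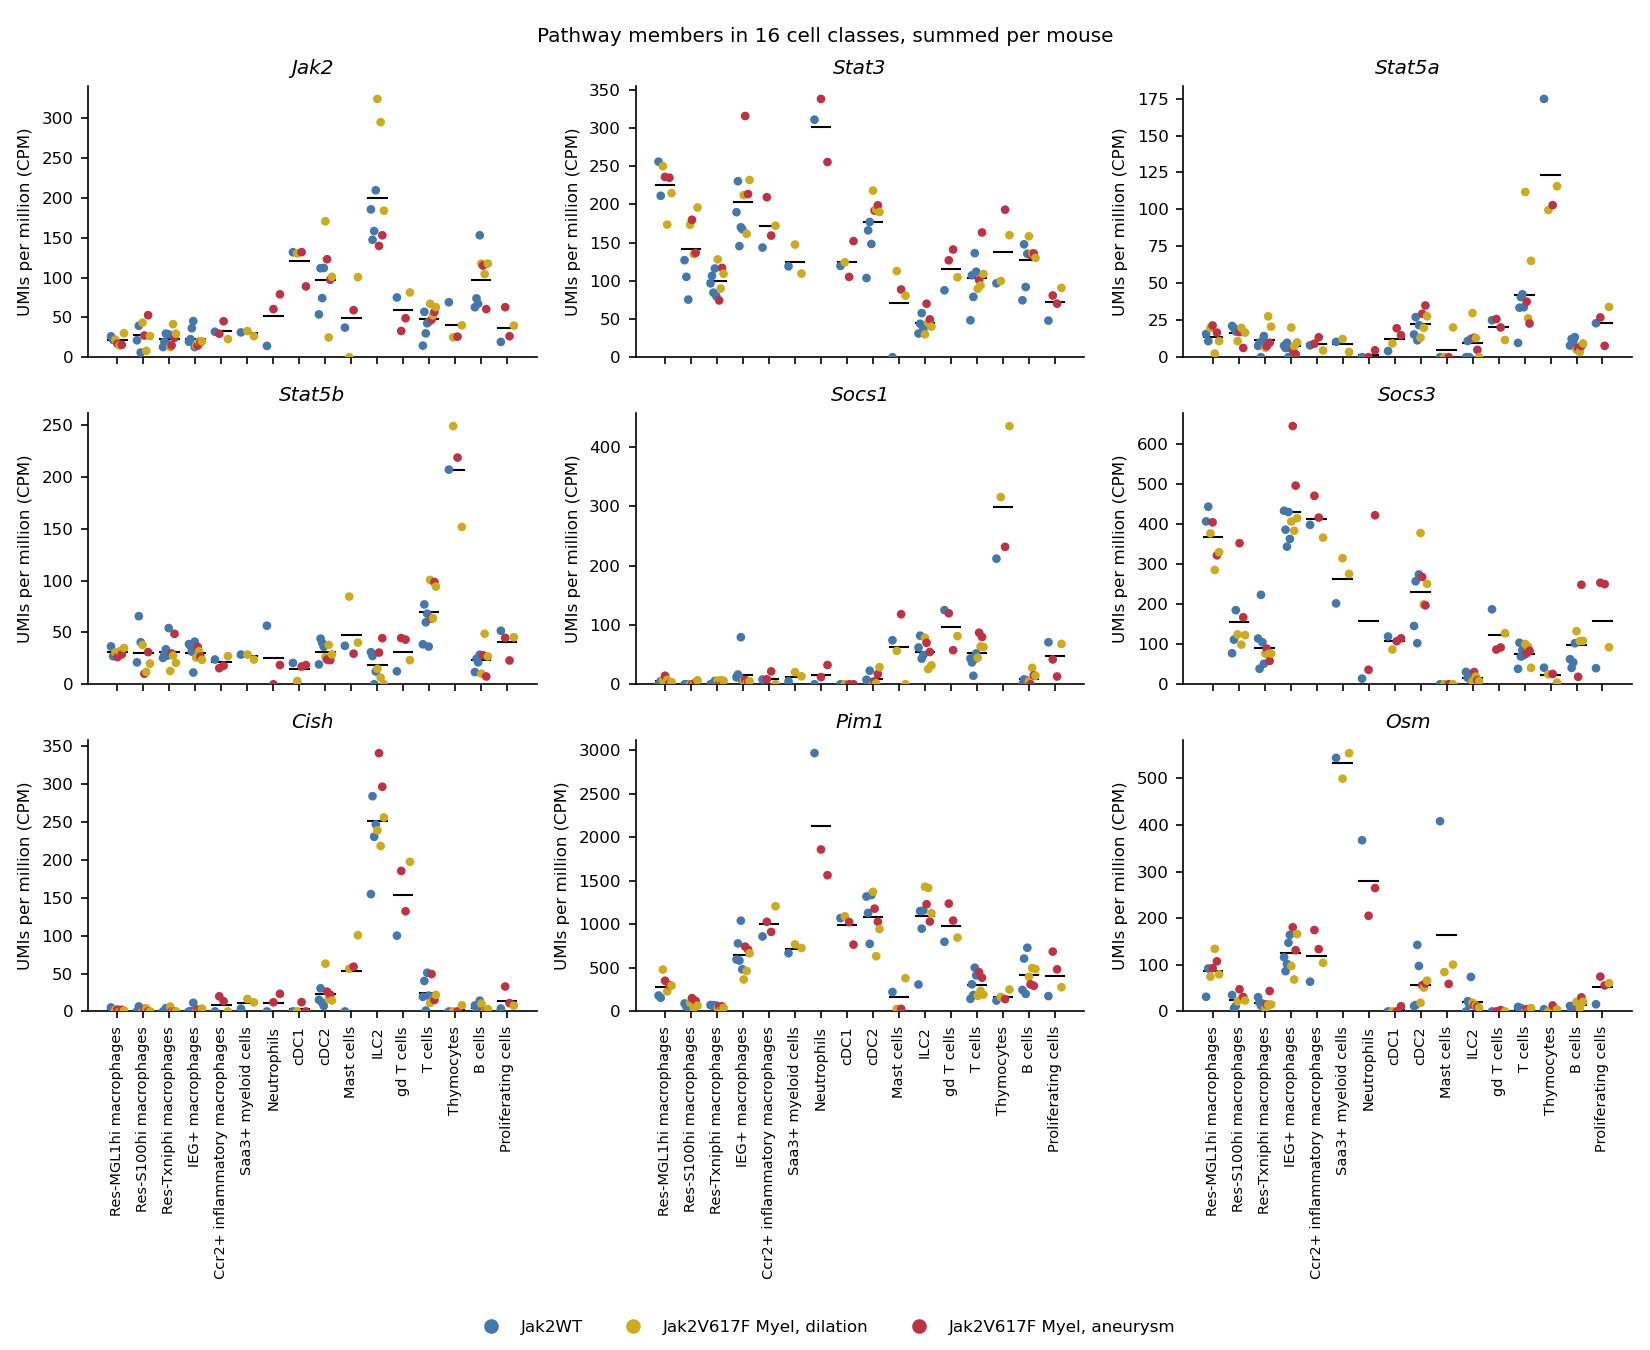
Scaled UMI counts (CPM, linear axis from 0) of the 9 members in 16 cell classes. Each point is the sum over 1 mouse with at least 10 cells of the class, coloured by group, and the black line is the mean over mice. Cish and Jak2 peak in ILC2, Socs1 and Stat5b in thymocytes, Pim1 in neutrophils, Osm in Saa3+ myeloid cells, and Socs3 in IEG+ and Ccr2+ inflammatory macrophages.

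Pim1 and Osm were both led by myeloid classes, and Pim1 was also high in innate lymphoid and gamma delta T cells. Pim1 was highest in neutrophils at 2130 CPM (range 1560 to 2970, n = 3), without overlap with ILC2 at 1090 ± 333 (n = 9), and cDC2 (1080 ± 258) and Ccr2+ inflammatory macrophages (861 to 1208) overlapped with ILC2, as did gamma delta T cells at 982 ± 201. The resident clusters were near the other end, with 286 CPM (157 to 480.1) in Res-MGL1hi, 83.7 ± 39.6 in Res-S100hi and 55.3 ± 17.2 in Res-Txniphi, the lowest class of the 16. Osm was highest in the Saa3+ myeloid cells, at 532 ± 29.1 CPM in mice 5, 8 and 10 (544, 499 and 554), and did not overlap with neutrophils at 279 ± 82.0 CPM in 3 other mice. The IEG+ and inflammatory macrophages held 126 ± 37.9 and 119 ± 46.8 CPM of Osm, Res-MGL1hi 87.4 ± 31.7, Res-S100hi 25.6 ± 13 and Res-Txniphi 18.1 ± 11.1. With each cell thinned to 2000 UMIs, Osm was seen in 51.9% of Saa3+ cells (exact 95% interval 44.9 to 58.9, 206 cells), 21.8% of inflammatory macrophages (18.2 to 25.8) and 15.0% of Res-MGL1hi (11.2 to 19.6). T cells, which served as background, had 1.25% (0.407 to 2.89). Before thinning the 4 shares were 86.5%, 62.1%, 32.2% and 3.65%, at median depths of 19897, 12816, 11236 and 7688 UMIs, and thinning left out 2, 4, 1 and 11 shallower cells. These intervals cover counting error only.

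Genes whose mean level followed that of a member over the classes were ranked by Pearson's r of log2(CPM + 1) over 19 classes, among 9857 genes. These classes are the 16 above with interferon-induced macrophages and platelets, from 1 mouse each, and NK cells, from 2 mice. The platelet sum held 0 CPM of Socs3, Cish, Pim1 and Osm. The classes share 1 library and mice, so r is a description. Cish was followed most closely by Socs2, another STAT5-induced inhibitor of the same family (r = 0.879), then Hs3st3b1, Klk8, Ero1l and Dnaja4 (0.815 to 0.851). The genes most like Pim1 were Mpp7 (0.94), the histone demethylase Kdm6b, the RNase Zc3h12a, Gadd45b and the NF-κB subunit Nfkb2 (0.904 to 0.921). Those most like Osm were Ccrl2 (0.924), Rab20, Nfkbiz, Dusp1 and Etf1 (0.873 to 0.886), and those most like Socs3 were Bcl3 (0.947), Creb3 (0.945), Lfng, Cnpy3 and Susd3 (0.921 to 0.927).

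In resident macrophages, Pim1 and Osm were about 2-fold higher in mice with the myeloid mutation, while the difference in Jak2 itself was near 0. Pim1 (chr17:29490753-29496112) stood at 109, 112, 98.2, 117 and 87.5 CPM in Jak2WT mice 1 to 5. In the mutant mice it stood at 305, 131 and 190.5 CPM in mice 6, 8 and 10 with dilation, and at 235 and 227 CPM in mice 7 and 9 with aneurysm. The genotypes did not overlap, with mouse 8 closest to the controls. The means were 105 ± 11.7 and 218 ± 63.6 CPM (SD, n = 5 each), a log2 fold change of 1.09 ± 0.19 (SE, 2.13-fold, adjusted p = 0.00524, edgeR's quasi-likelihood test with Benjamini-Hochberg adjustment over 6886 genes). Osm (chr11:4236420-4241026) stood at 38.5, 20.1, 23.8, 49.5 and 31.1 CPM in Jak2WT mice, from 8 to 23 UMIs each. Mice 6, 8 and 10 had 48.9, 79.3 and 53.05 CPM and mice 7 and 9 had 64.7 and 81.1. Only Jak2WT mouse 4, with 28 resident macrophages, reached into the mutant range. The log2 fold change of Osm was 1.05 ± 0.22 (2.07-fold, adjusted p = 0.0166, edgeR's quasi-likelihood test). In the two-sided exact permutation test of log2(CPM + 1), Pim1 had p = 0.00794, the smallest possible, and Osm p = 0.0159. Neither passed without the 2 mice with aneurysm (adjusted p = 0.0713 for Pim1 and 0.153 for Osm, edgeR's quasi-likelihood test) or when the macrophages were clustered more finely (0.216 and 0.0916). Osm alone also failed without Jak2WT mouse 3 or without mouse 9 (adjusted p = 0.0505 and 0.06, edgeR's quasi-likelihood test). It failed as well with the alternative hashtag calls, with members and pathway genes kept in the variable genes, and with 10 principal components (adjusted p = 0.0523, 0.0621 and 0.0995, edgeR's quasi-likelihood test).

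The other tested members did not pass in resident macrophages. Stat3 stood at 125, 169.9, 125, 145 and 113 CPM in Jak2WT and at 208, 146, 186, 191 and 196 CPM in mutant mice 6, 8, 10, 7 and 9. All 5 mutant values lay above the control median, but Jak2WT mouse 2 stood above mouse 8, and the log2 fold change of 0.48 ± 0.14 had an adjusted p of 0.076 (edgeR's quasi-likelihood test). Without Jak2WT mouse 2 or without mouse 8 its adjusted p was 0.023 and 0.0374 (edgeR's quasi-likelihood test). The exact permutation test gave p = 0.0159 for Stat3, the same value as for Osm. Socs3 ran from 151 to 336 CPM in controls and from 190 to 337 CPM in mutant mice (log2 fold change 0.23 ± 0.18, adjusted p = 0.647, edgeR's quasi-likelihood test). Jak2 ran from 16.7 to 35.4 CPM against 17.4 to 29.2 CPM, a log2 fold change of -0.03 ± 0.25. Stat5b ran from 23.4 to 44.7 against 21.2 to 32.1 CPM (-0.35 ± 0.21), and Stat5a from 5.95 to 15.7 against 12.4 to 17.7 CPM (0.17 ± 0.27). Socs1 and Cish had too few UMIs to be tested there, with at most 7 and 2 UMIs in a mouse. The 2 members that passed are 2 of 7 tested, beside 2.25% of all genes tested (1.63% higher). Sums over a class cannot tell more transcript per cell from more cells of a kind that holds it.

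**Figure D2:**
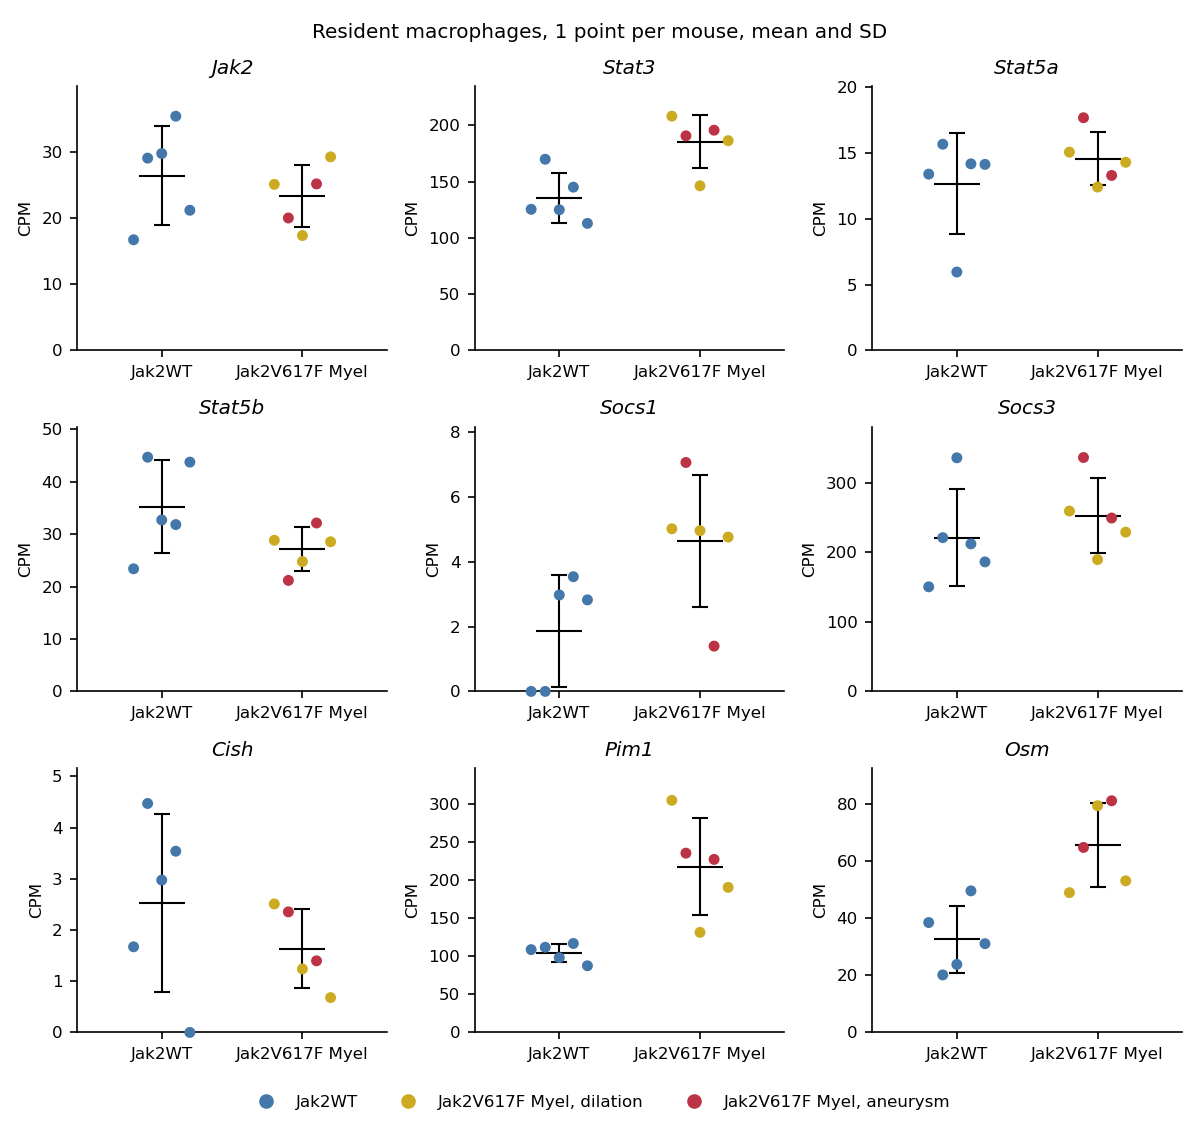
CPM of the 9 members in resident macrophages, with 1 point per mouse and the mean and SD of each genotype (n = 5 each). The mutant mice sit above all controls for Pim1 and above most for Osm and Stat3, and among or below them for Jak2, Stat5b and Cish.

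Several further STAT targets were higher in mutant resident macrophages. Of 17 other STAT targets, 15 were tested and 5 were higher, namely the adhesion molecule Icam1 (log2 fold change 1.54 ± 0.20), the transcription factor Cebpb (0.97 ± 0.13), the survival factor Mcl1 (0.57 ± 0.09), the cell cycle inhibitor Cdkn1a (1.16 ± 0.23) and the NF-κB co-activator Bcl3 (1.30 ± 0.30). None was lower, and the median of the list was 0.50 against -0.01 over all genes tested. Of 15 other negative regulators, 12 were tested and the phosphatase Ptpn6 (SHP-1) was lower (-0.53 ± 0.12). None of the 21 receptors tested of 31 that couple to JAKs, of the 5 tested of 7 other JAKs and STATs, and of the 2 cytokines tested of 16 passed by edgeR's quasi-likelihood test. Over all genes tested 2.25% were called, so lists of these lengths can hold no called gene without differing from the rest. The lists were chosen with earlier results of these data known, so their counts are not independent of those results.

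The make-up of the resident class and its immediate-early genes moved with genotype too. Res-MGL1hi cells, the resident cluster highest in Pim1 and Osm, made up 10.5 to 45.0% of the resident macrophages of Jak2WT mice and 46.9 to 61.7% of those of mutant mice. Res-Txniphi cells, the lowest in both, made up 30 to 74.4% in Jak2WT and 15.8 to 27.5% in mutant mice, and neither share overlapped between genotypes. Of 15 immediate-early and heat-shock genes, which are induced by stimuli of many kinds and by enzymatic digestion of tissue, 4 were higher in mutant resident macrophages (Ier3, Junb, Zfp36 and Atf3). The summed level of the 15 genes was 18520 to 33250 CPM in Jak2WT and 30550 to 36020 CPM in mutant mice, and Jak2WT mouse 2 alone reached the mutant range. Within no single resident cluster did this summed level lie above all controls in every mutant mouse, and no test was made there. These genes were not kept out of the clustering. The IEG+ cluster, named by Egr1, Zfp36 and Jun, lies outside the resident class. Sums of these genes within a cluster are thus not independent of how the cells were sorted into clusters. In Res-MGL1hi it was 51930 and 50050 CPM in Jak2WT mice 2 and 5 and lower, at 42150 to 49330 CPM, in mutant mice. The genotypes overlapped in Res-Txniphi (14070 to 18190 against 13580 to 18860 CPM). They also overlapped in Res-S100hi (15910 to 22360 CPM in Jak2WT mice 1, 2 and 5 against 18670 to 21790 CPM). Markers of neutrophils, which are rich in Pim1 and Osm, summed to 31.8 to 101 CPM in Jak2WT and 45.9 to 132 CPM in mutant mice over 5 genes, 1 of them tested and none called. Those of Saa3+ cells, the class highest in Osm, summed to 26.8 to 213 against 38.4 to 218 CPM over 4 genes, 1 of them tested and none called, and no gene of either list was at 0. Those of cDC2, which are also rich in Pim1, summed to 463 to 959 against 433 to 727 CPM over 5 genes, 2 of them tested and 1 called (Cd209a, higher in mutant mice), and none was at 0. Apart from the values within each resident cluster that follow, the part of these in the difference of Pim1 and Osm was not tested.

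Within single resident clusters no member was called between genotypes. Only Stat3, Socs3 and Pim1 were tested, in Res-Txniphi and Res-S100hi. The other members, Osm among them, had no such test in any resident cluster. In Res-MGL1hi, Pim1 stood at 183 and 157 CPM in Jak2WT mice 2 and 5, the 2 controls with at least 10 cells, and at 480.1, 229.5, 297, 352 and 303.5 CPM in mice 6, 8, 10, 7 and 9. Jak2WT mice 1, 3 and 4 had 6, 5 and 4 cells of the cluster and 366.5, 290.2 and 403 CPM of Pim1 from 15 to 23 UMIs each, which lie within the mutant range. With 2 controls no fit was made there. Osm in the cluster stood at 31.3 and 92.0 CPM in the same 2 controls and at 74.5 to 134 CPM in the mutant mice, and overlapped.

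In Res-S100hi, Pim1 stood at 91.7, 52.5 and 52.1 CPM in Jak2WT mice 1, 2 and 5 and at 97.4, 35.7, 66.4, 153 and 121 CPM in mice 6, 8, 10, 7 and 9. The genotypes overlapped, and the log2 fold change of 0.57 ± 0.42 had an adjusted p of 0.88 (edgeR's quasi-likelihood test). Stat3 in this cluster ran from 75.2 to 127 CPM in the 3 controls and from 135 to 196 CPM in the 5 mutant mice, without overlap, and did not pass either (0.70 ± 0.25, adjusted p = 0.761, edgeR's quasi-likelihood test). In Res-Txniphi, Pim1 went the other way. It stood at 73.7, 67.7, 71.7, 60.7 and 68.4 CPM in Jak2WT mice and at 38.4, 20.7, 41.3, 52.0 and 58.4 CPM in mice 6, 8, 10, 7 and 9, from 3 to 14 UMIs each in the mutant mice. All 5 mutant values lay below every control. The log2 fold change was -0.71 ± 0.25 (adjusted p = 0.478, edgeR's quasi-likelihood test), and the exact permutation test gave p = 0.00794, the smallest it allows with 5 mice against 5. In both clusters 0% of genes were called. The difference of Osm in Res-Txniphi was near 0 (-0.05 on the log2(CPM + 1) scale, exact permutation p = 0.905). In Res-S100hi it was 0.99 on the same scale, and the genotypes overlapped. All 5 mutant values there lay above the median of the 3 controls (exact permutation p = 0.125, the smallest possible being 0.0179).

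The genotype difference of Pim1 was compared between macrophage clusters, in fits with the mouse as a block that were chosen after seeing the data. It was larger in the resident class than in the IEG+ cluster by 1.26 ± 0.23 on the log2 scale in 10 mice (adjusted p = 0.00278, edgeR's quasi-likelihood test, 0.706% of genes called). For Osm the corresponding difference was 1.05 ± 0.31 and did not pass (adjusted p = 0.142, edgeR's quasi-likelihood test). Against Res-Txniphi, the genotype difference of Pim1 was larger by 1.64 ± 0.42 in Res-MGL1hi (7 mice, 0.057% of genes called) and by 1.21 ± 0.41 in Res-S100hi (8 mice, 0.0232%), and neither passed (adjusted p = 0.164 and 0.914, edgeR's quasi-likelihood test). In the IEG+ cluster itself, Pim1 was already at 596, 781, 584, 1042 and 483 CPM in Jak2WT mice 1 to 5 and at 367, 464, 667, 744 and 709.9 CPM in mutant mice 6, 8, 10, 7 and 9. The groups overlapped, with a log2 fold change of -0.24 ± 0.20. The other 4 members tested there ran from -0.34 (Stat5b) to 0.28 (Stat3), and none of the 5 passed by edgeR's quasi-likelihood test (0.0429% of all genes did) or by DESeq2. At an unadjusted p under 0.05 the exact permutation test, run on the members alone, singled out 1 member in the IEG+ cluster, Socs1 (p = 0.0159). It rested on 1 to 8 UMIs a mouse, was lower in mutant mice and was not tested there by edgeR.

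**Figure D3:**
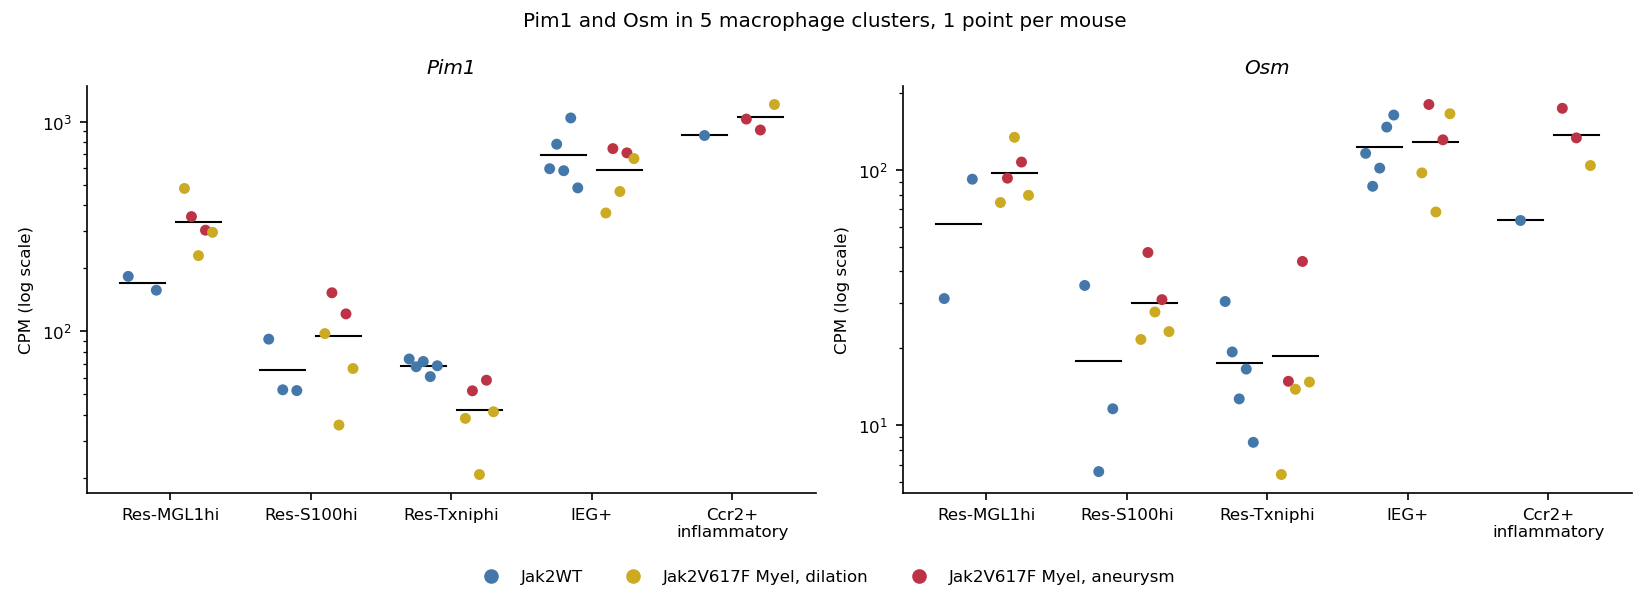
Pim1 and Osm in 5 macrophage clusters, in CPM on a log axis, with 1 point per mouse with at least 10 cells, controls to the left and mutant mice to the right in each cluster, and the mean as a black line. Pim1 is lower in all 5 mutant mice in Res-Txniphi, mixed in Res-S100hi and IEG+, and above the only 2 controls with enough cells in Res-MGL1hi, while its level in the Ccr2+ inflammatory cluster is at 861 to 1208 CPM in all 4 mice.

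Over all 1726 macrophages, no member passed between genotypes. Of the 8 members tested 0 passed, as did 0% of 8166 genes, by edgeR's quasi-likelihood test, and DESeq2 called 0 members. At an unadjusted p under 0.05, where the share of all genes was not counted, there were 3 members, all higher in mutant mice. Their log2 fold changes were 0.39 ± 0.15 for Stat3, 0.61 for Pim1 and 0.53 for Osm (adjusted p = 0.324, 0.402 and 0.374, edgeR's quasi-likelihood test). The log2 fold changes of the others were 0.11 for Jak2, 0.26 for Stat5a, -0.28 for Stat5b, 0.27 for Socs1 and 0.34 for Socs3, and Cish was not tested. Mice 7 and 9 had 66.4 and 50.3% of their macrophages in the Ccr2+ inflammatory cluster, against 0 to 11% in controls. Without these 2 mice 0 members had an unadjusted p under 0.05, and outside that cluster 1 did (edgeR's quasi-likelihood test). Over the alternative settings the log2 fold change went down to 0.06 for Pim1 and 0.16 for Osm.

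Among mutant mice, macrophages of the aortas with aneurysm held more Cish, Pim1 and Osm than those with dilation alone. Cish (chr9:107296026-107302784) stood at 14.4 and 8.72 CPM in mice 7 and 9, from 64 and 47 UMIs, and at 1.45, 0.71 and 2.55 CPM in mice 6, 8 and 10, from 2, 1 and 7 UMIs. The 5 controls lay between 0.826 and 4.11 CPM, from 1 to 4 UMIs each, so that both aneurysm values stood above all 8 other mice. The log2 fold change was 2.72 ± 0.49 (6.6-fold, adjusted p = 0.00278, edgeR's quasi-likelihood test in 1 fit of 3 groups over 9029 genes). Pim1 stood at 838 and 695 CPM in mice 7 and 9 against 421, 279 and 426 CPM with dilation and 260.2 to 503 CPM in controls. Osm stood at 158 and 116 CPM against 80.6, 81.0 and 91.5 CPM with dilation and 57.5 to 95.8 CPM in controls, and for both genes the aneurysm values stood above the rest. The log2 fold changes were 1.11 ± 0.24 for Pim1 and 0.77 ± 0.19 for Osm (adjusted p = 0.00872 and 0.0216, edgeR's quasi-likelihood test). These 3 are among 9 members tested, beside 9.64% of all genes called (5.83% higher). Socs3 stood at 451 and 369 CPM against 336, 247 and 305 CPM and did not pass (log2 fold change 0.55, adjusted p = 0.0869, edgeR's quasi-likelihood test). Jak2 (log2 fold change 0.61), Stat3 (0.18), Stat5a (-0.12), Stat5b (-0.28) and Socs1 (1.04) did not pass either.

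These values moved with the make-up of the macrophages. Of all macrophages, 66.4% in mouse 7 and 50.3% in mouse 9 fell in the Ccr2+ inflammatory cluster, against 3.23 to 7.29% with dilation and 0 to 11% in controls, and most Cish UMIs of mice 7 and 9 (59 of 64 and 42 of 47) lay in it. Markers of ILC2, the class highest in Cish, summed over all macrophages to 132 and 138 CPM with aneurysm, against 39.2 to 54.7 CPM with dilation and 26.7 to 110 CPM in controls, over 5 genes of which none was at 0. Those of monocytes summed to 304 and 476 CPM with aneurysm, against 65.3 to 391 CPM with dilation and 58.2 to 308 CPM in controls, over 4 genes of which none was at 0. The ILC2 list held Areg, a leading gene of the inflammatory cluster, and the monocyte list held Ccr2, a marker used to name it. Either sum can thus rise with the share of the inflammatory cluster, without other cells being present. The part of either list was not tested. With that cluster left out together with an unnamed cluster of 16 cells, 0 members and 0 of 8835 genes were called by edgeR's quasi-likelihood test. Pim1 then differed by 0.33 ± 0.22 and Osm by 0.36 ± 0.20 on the log2 scale, and Cish was too low to be tested. In resident macrophages alone 0 of 7 members and 0.0127% of genes were called between aneurysm and dilation by edgeR's quasi-likelihood test, with log2 fold changes of 0.13 ± 0.24 for Pim1, 0.28 for Osm, 0.35 for Socs3 and -0.11 to 0.09 for Jak2, Stat3, Stat5a and Stat5b, and 0 members at an unadjusted p under 0.05, and DESeq2 called 0 members. Without mouse 7, which left 1 mouse with aneurysm whose spread was taken from the other groups, no member passed, and the log2 fold changes were 2.32 for Cish, 0.95 for Pim1 and 0.52 for Osm (adjusted p = 0.0779, 0.101 and 0.295, edgeR's quasi-likelihood test). Osm did not pass without mouse 6 or without mouse 8 either (adjusted p = 0.073 and 0.0707, edgeR's quasi-likelihood test).

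The receptors of the pathway moved in both directions in this comparison. Of 31, 22 were tested and 5 were higher with aneurysm, namely Il7r (log2 fold change 2.12 ± 0.37), the GM-CSF and IL-3 receptor chain Csf2rb (0.93 ± 0.19), Il21r (0.92 ± 0.17), Ifngr2 (0.79 ± 0.14) and Ifnar1 (0.53 ± 0.14). There were 3 lower, the erythropoietin receptor Epor (-1.28 ± 0.31), Lifr (-0.84 ± 0.17) and Il6ra (-0.52 ± 0.13), and the median of the receptors was 0.21. Among 16 other STAT targets tested, Nfil3 (2.30 ± 0.31), Ccnd2 (1.17 ± 0.29), Bcl3 (0.94 ± 0.26) and Hif1a (0.84 ± 0.14) were higher and Cebpd (-0.63 ± 0.15) lower, with a median of 0.29. Of 14 other negative regulators, Pias1 (-0.80 ± 0.15) and Sh2b3, which encodes the JAK2 inhibitor LNK (-0.63 ± 0.17), were lower. The cytokine Tslp was lower (-1.32 ± 0.30), as were 5 of 15 immediate-early and heat-shock genes (Hspa1b, Jun, Hspa1a, Atf3 and Ier2, -1.34 to -0.70). Over all genes tested 9.64% were called, and the median was -0.002.

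Within the same mice the inflammatory cluster held more Pim1, Osm and Socs3 than the resident class. The 4 mice with at least 10 cells of both were Jak2WT mouse 2 and mutant mice 7, 9 and 10. In the order of mice 2, 7, 9 and 10, Pim1 stood at 861, 1029, 913 and 1208 CPM in inflammatory and at 112, 235, 227 and 190.5 CPM in resident macrophages. The difference was seen in 4 of 4 mice and amounted to a log2 fold change of 2.53 ± 0.22 (5.78-fold, adjusted p = 8.52e-07, edgeR's quasi-likelihood test). Osm (1.37 ± 0.30, 2.58-fold) and Socs3 (0.84 ± 0.17, 1.79-fold) were higher in 4 of 4 mice as well (adjusted p = 0.0031 and 0.00172, edgeR's quasi-likelihood test). This fit took the 2 sums of a mouse as independent. With the mouse as a block Pim1, Osm and Socs3 passed too (edgeR's quasi-likelihood test). The other tested members did not pass, with log2 fold changes of 0.63 for Jak2, 0.08 for Stat3, -0.29 for Stat5a and -0.60 for Stat5b (adjusted p = 0.056, 0.774, 0.501 and 0.0937, edgeR's quasi-likelihood test). The 3 that passed are among 7 members tested, beside 25.5% of all genes called (12.9% higher). The clusters were made from other genes of the same cells, with the members and the pathway lists left out. The immediate-early and heat-shock genes were not left out. The tests thus describe how far the classes differ and are not independent of the clustering. Cish stood at 0, 19.9, 13.4 and 0 CPM in the inflammatory cells of mice 2, 7, 9 and 10, from 0, 59, 42 and 0 UMIs, and at 0.68 to 4.47 CPM in their resident macrophages. It was too low for the test, but passed with the mouse as a block (log2 fold change 2.68, adjusted p = 0.00278, edgeR's quasi-likelihood test), with 2 of 4 mice higher. Thinned to 2000 UMIs per cell, 2.31% of inflammatory macrophages held a Cish UMI (1.16 to 4.1), against 0.454% of IEG+ (0.055 to 1.63) and 0.284% of resident macrophages (0.0345 to 1.02). The unthinned shares were 11.9, 0.907 and 1.85%, at median depths of 12816, 8971 and 10463.5 UMIs. Among receptors, 9 were higher in the inflammatory cluster, among them Ifngr2 (1.24), Il2rg (1.38) and Csf2rb (1.38), and 4 were lower, among them Epor (-3.08), Lifr (-1.39) and Il6ra (-0.84). Of 16 other STAT targets tested, 7 were higher, among them Nfil3 (3.34), Ccnd2 (2.56), Bcl3 (1.31), Batf (1.26) and Myc (1.15), and Cebpd (-1.32) was lower. Of 14 other negative regulators, the phosphatases Ptpn1 (0.72), Ptpn6 (0.62) and Ptpn2 (0.59) were higher and Pias1 (-1.26), Pias3 (-1.06) and Sh2b3 (-0.73) lower. Stat2 (-1.14), the cytokines Tslp (-4.20) and Il15 (-0.80), and 5 of 15 immediate-early and heat-shock genes (Hspa1b, Hspa1a, Jun, Ier2 and Hsph1, -1.48 to -0.90) were lower too.

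**Figure D4:**
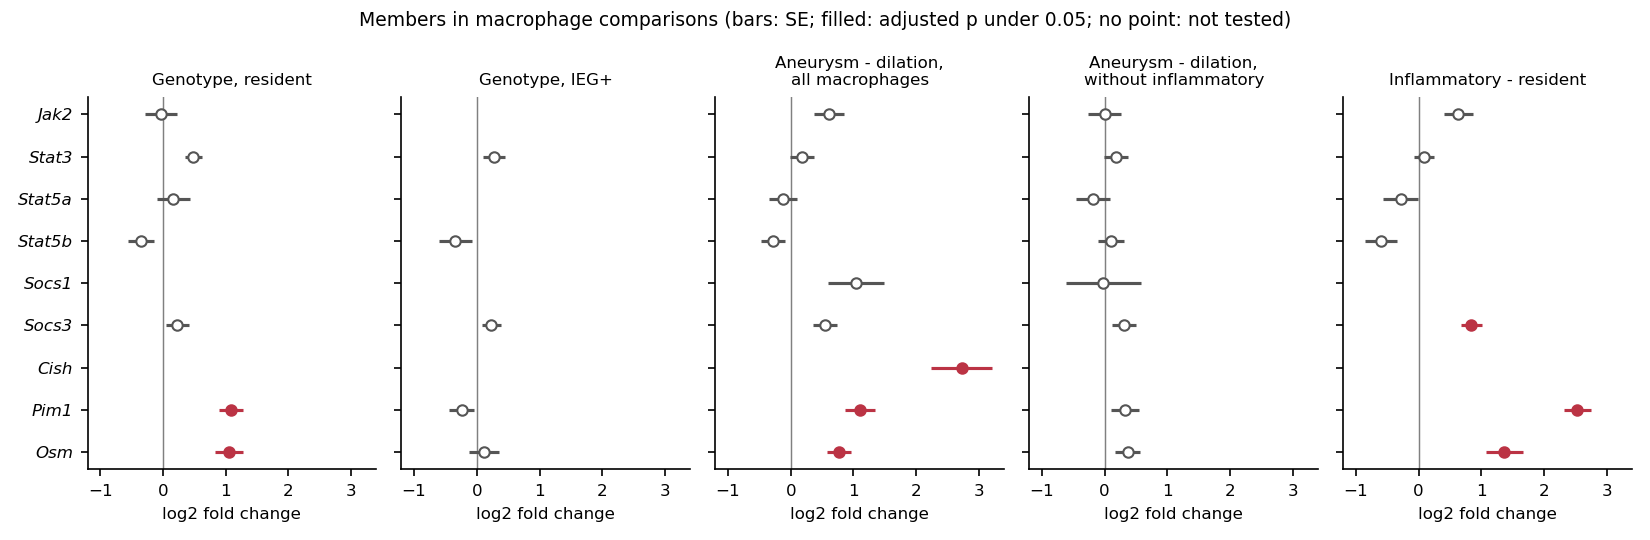
Log2 fold changes (points) with standard errors (bars) of the 9 members in 5 comparisons of macrophages. Filled points have an adjusted p under 0.05, and a gene without a point was not tested. Pim1 and Osm are filled in the genotype panel of resident macrophages, Cish, Pim1 and Osm between aneurysm and dilation, and none once the inflammatory cluster is left out.

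In cDC2, T cells, B cells and ILC2, the only leukocytes other than macrophages that were tested, no member passed between genotypes. Neutrophils and Saa3+ cells, with sums from 3 mice each, were not tested. Of the 9 members, 7 were tested in cDC2, 7 in T cells, 4 in B cells and 3 in ILC2. The counts of called members by edgeR's quasi-likelihood test and by DESeq2 were 0 in each of these classes. Beside them stood 0.0234% of all genes in cDC2 and 0% in the 3 lymphoid classes by edgeR. At an unadjusted p under 0.05, where the share of all genes was not counted, there was 1 member each in cDC2 and T cells. In T cells it was Socs1, at 43.4, 36.8, 14.3, 42.5 and 52.0 CPM in Jak2WT mice 1 to 5 and at 44.7, 63.75, 62.8, 86.8 and 79.65 CPM in mutant mice 6, 8, 10, 7 and 9, from 4 to 37 UMIs. All 5 mutant values lay above the control median and the groups overlapped (log2 fold change 0.97 ± 0.30, adjusted p = 0.508 by edgeR's quasi-likelihood test, exact permutation p = 0.0159). In cDC2 it was Stat3, at 103.5 to 177 CPM in 4 controls and at 190 to 218 CPM in 5 mutant mice, without overlap (exact permutation p = 0.00794), which did not pass in the count model (log2 fold change 0.38 ± 0.17, adjusted p = 0.62, edgeR's quasi-likelihood test). The log2 fold changes of the other members tested ran from -0.40 (Stat5b) to 0.40 (Stat5a) in cDC2, from -0.11 (Pim1) to 0.46 (Jak2) in T cells and from -0.15 (Pim1) to 0.66 (Socs3) in B cells. In ILC2, where Cish and Jak2 were highest, they stood at 0.16 and 0.32, and Pim1 at 0.42. When the genotype difference in macrophages was set against that in B and T cells of the same mice, no member passed (0 of 8723 genes called by edgeR's quasi-likelihood test, 0 members at an unadjusted p under 0.05 and 0 by DESeq2). The differences were 1.90 for Cish and 0.66 for Pim1 (adjusted p = 0.781 and 0.826, edgeR's quasi-likelihood test) and -0.89 (Socs1) to 0.21 (Stat5a) for the others. This fit took the 2 sums of a mouse as independent. With the mouse as a block 0 members were called by edgeR's quasi-likelihood test. In that fit 2 members had an unadjusted p under 0.05, where the share of all genes was not counted.

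Surface protein was measured for 2 genes of the lists. CD54, the product of Icam1, averaged 8.77 ± 1.86 counts per cell in resident macrophages of Jak2WT and 8.53 ± 1.24 in those of mutant mice (n = 5 each, difference -0.244, two-sided exact permutation p = 0.825), although the Icam1 transcript was higher. Over all macrophages CD54 averaged 8.22 ± 1.56 and 9.57 ± 1.81 (exact permutation p = 0.262). CD127, the product of Il7r, averaged 0.101 ± 0.049 and 0.167 ± 0.065 counts per cell over all macrophages (exact permutation p = 0.103). Of the rat isotype controls, IgG2b averaged 0.047 and 0.116 counts per cell (exact permutation p = 0.0238). Its difference of 0.0693 was no smaller than the 0.0665 of CD127. IgG2a was 0 in every mouse of both genotypes. Only 73 of the 75 antibodies had any counts, so a tag that gave no data cannot be told from a background of 0.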

How the data were processed

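Aortic CD45+ cells of 10 mice were measured in 1 pooled library. The authors aligned the reads to mm10 and counted them with Cell Ranger. The deposited files hold raw UMI counts per gene and barcode and raw antibody counts, which were not normalized before deposit. Cells were assigned to mice from the hashtag counts by rebuilding the HTODemux steps (quantile 0.99). Barcodes with more than 1 hashtag, none, or over 10% mitochondrial transcripts were left out, and doublets of the same mouse could not be detected. Cells were clustered in R 4.3.3 with Seurat 5.3.0 and Matrix 1.6.5 (2000 variable genes, 20 components, resolution 0.3, and 0.8 for macrophages), and clusters were named from markers. The members and pathway lists were kept out of the variable genes, except the immediate-early and heat-shock genes. Rebuilt names may differ from those of the study.

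Counts were summed per mouse and class (at least 10 cells) and tested with edgeR 4.0.16 (filterByExpr, TMM, quasi-likelihood test, Benjamini-Hochberg over all genes tested, threshold 0.05, two-sided). Libraries held 1038443 to 9643994 UMIs per mouse. The mouse was the replicate, and exact permutation tests used log2(CPM + 1). The fits were tested on simulated data. Alternatives were DESeq2 1.42.0, no filter on low counts, other hashtag calls and clusterings, mice left out, and the mouse as a block. Sums of the same mouse come from the same animal and so are paired. Their deviations correlated with r of 0.063 to 0.253 between resident and inflammatory macrophages (4 mice, 3 over 0.1) and 0.029 to 0.251 between lymphoid cells and macrophages (10 mice). The rule for named genes took the 9 members in each comparison and, of each other list, its called genes, at most 6 by adjusted p. Where members moved little their range is given, and all 8 called receptors are named between aneurysm and dilation. For Socs3, Cish, Pim1 and Osm, the 5 genes most like them over classes are named, among genes of at least 20 CPM in a class. The members and lists were chosen with earlier results of these data known. Promoter windows came from RefSeq and gene spans from GENCODE.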

Additional observations from a re-analysis of the deposited data

Results flagged for a closer look

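Dixon's test of the highest and lowest mouse was run on 126 groups of 4 or 5 mice and singled out 11. Chance would single out about 1 in 20 groups. For Stat3 these were Jak2WT mouse 2 over all macrophages (190 CPM, the other controls 130 to 142), mutant mouse 9 in T cells (163 against 89.4 to 109) and mutant mouse 6 in B cells (158 against 130 to 136). For Stat5a they were Jak2WT mouse 3 in resident macrophages (5.95 CPM from 2 UMIs, others 13.4 to 15.7) and Jak2WT mouse 1 in T cells (9.64 from 2 UMIs, others 33.5 to 42.5). For Cish they were mutant mouse 6 in cDC2 (63.0 CPM from 26 cells, others 14.4 to 26.1), mutant mouse 7 in T cells (49.3 against 11.2 to 21.7) and Jak2WT mouse 4 in IEG+ macrophages (11.3 CPM from 1 UMI in 10 cells, others 0). The same mouse stood out for Socs1 in IEG+ macrophages (79.3 CPM from 7 UMIs, others 6.32 to 16.4). For Jak2 in B cells they were Jak2WT mouse 5 (153 CPM, others 62.6 to 73.8) and mutant mouse 9 (60.3 from 16 cells, others 104 to 118). The genotype difference of Pim1 differed between resident and IEG+ macrophages, by 1.264 on the log2 scale (adjusted p = 0.00278, edgeR's quasi-likelihood test), and was the larger one in the resident class.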

How the results depend on the processing

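The number of members called kept within 1.5 times its reported value in most settings, where a 0 that stayed 0 counted as kept. Most comparisons had 0 members called as reported. For genotype in resident macrophages 2 were called, and 1 with the alternative hashtag calls, with members and pathway genes kept in the variable genes, with 10 principal components (Osm lost in each) and, by leaving out 1 mouse in turn, 1 to 3. It was 0 with the finer macrophage clustering, without the 2 mice with aneurysm, and in Res-Txniphi or Res-S100hi alone. In these single clusters only Stat3, Socs3 and Pim1 were tested. Pim1 changed sign in Res-Txniphi alone (-0.712). Over the resident clusters together, Stat3 was called in 4 settings, among them no filter on low counts and low-RNA clusters kept. For aneurysm against dilation in macrophages 3 were called, 5 with no filter on low counts, 0 to 3 by leaving out 1 mouse, and 0 without the Ccr2+ inflammatory cluster, with or without the unnamed cluster. For Ccr2+ inflammatory against resident macrophages 3 were called, 5 with no filter and with the alternative hashtag calls, and 6 with at least 20 cells per sum. With the mouse as a replicate block that count was 4 (Pim1, Osm, Socs3 and Cish), from 1812 genes in all, and the block changed no other call. The unadjusted exact permutation test, run on the members alone, singled out 1 member in IEG+ macrophages (Socs1), 1 in cDC2 (Stat3), 2 in T cells (Jak2 and Socs1) and 1 in B cells (Stat5a, lower in mutant mice). The count model called 0 in these classes after adjustment, but did not test Socs1 in IEG+ macrophages or Stat5a in B cells. Without adjustment it also had Stat3 in cDC2 and Socs1 in T cells at a p under 0.05 (edgeR's quasi-likelihood test). In resident macrophages the permutation test singled out Stat3 beside Pim1 and Osm. Of CD127 and CD54, 0 passed over all macrophages, and 1 (CD127) with the alternative hashtag calls or, by leaving out 1 mouse, 0 to 1. The causes were not tested.

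All genes called ran from 0 to 423 for genotype in resident macrophages (155 as reported, 73 to 270 by leaving out 1 mouse), from 0 to 295 in all macrophages (0, with 56 by DESeq2 and 295 in the fit of 3 groups), and from 2 to 98 in IEG+ macrophages (2). They ran from 0 to 1300 between aneurysm and dilation in macrophages (870, 364 to 1001 by leaving out 1 mouse), from 0 to 46 in resident macrophages (1), and from 1016 to 2522 between inflammatory and resident macrophages (1988). In other leukocytes they ran from 0 to 75 in cDC2 (1), 0 to 46 in T cells, 0 to 32 in B cells and 0 to 40 in ILC2 (0 each). Fits of cDC2 on 10 principal components, of cDC2 and ILC2 with at least 20 cells, and of genotype in Res-MGL1hi alone were not run, since too few mice had enough cells. In resident macrophages no mouse had more than 7 UMIs of Socs1 or 2 of Cish, too few for the test.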
